A study of Mus musculus with 8 samples.

Results

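Malat1, Neat1, Meg3, Miat, Snhg11, Rian and Mirg are long noncoding RNAs known from neurons. They were looked up by gene name in RNA sequencing counts from layer IV of the mouse visual cortex, the layer that receives visual input from the thalamus. Of these 7 RNAs, 4 matched rows: Malat1 with 5 transcript rows, Neat1 with 3, Meg3 with 11 and Snhg11 with 5, which makes 24 transcript rows. Miat, Rian and Mirg matched none by name or identifier and were not analysed here. Each gene was represented by the transcript row with the highest total count, and the tables held 34980 genes in all.

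The 6 libraries came from B6D2 mice. Wild-type mice (Otx2 +/+) were sampled at postnatal day 30 (P30) and at postnatal day 100 (P100), with 2 libraries at each age. Heterozygous mice, labelled Otx2 +/- and described as +/GFP for the study as a whole, were sampled at P30 with 2 libraries. Otx2 is a homeoprotein transcription factor. Layer IV was dissected by hand, total RNA was extracted, and each library was made from 4 pooled mice. The 2 heterozygous libraries labelled P100 were not analysed here. Nothing in the labels says whether duplicate libraries came from separate pools, so the spread behind each p-value is that of these libraries and may be technical.

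Malat1 is retained in the nucleus, where it collects in the nuclear speckles that store splicing factors. Neat1, its neighbour on the same chromosome, is the RNA scaffold of paraspeckles, nuclear bodies built on its long form; a short form shares the same start and ends early at a poly(A) signal. Meg3, Rian and Mirg are transcribed from the maternal copy of the imprinted Dlk1-Dio3 domain and carry microRNA and snoRNA genes within their transcription units. Snhg11 is a small nucleolar RNA host gene transcribed in brain, and Miat is a nuclear RNA of neurons that binds splicing factors. Long Neat1 and mature Malat1 end without an ordinary poly(A) tail, and the sources used here do not give whether poly(A) RNA was selected.

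On mm10 the Malat1 gene lies at chr19:5795690-5802672 on the minus strand and Neat1 at chr19:5824708-5845478 on the same strand. Meg3 lies at chr12:109541001-109571726 on the plus strand, and Snhg11 at chr2:158375638-158386145 on the plus strand. GENCODE M21 types Malat1, Neat1 and Meg3 as lincRNA but Snhg11 as protein coding. The rows used were Malat1-201 (1 exon, 6983 bases), Neat1-201 (1 exon, 20771 bases), Meg3-209 (5 exons, 14548 bases) and Snhg11-201 (5 exons, 5864 bases). Other annotated genes overlapped 7.72% of Malat1-201, 1.85% of Neat1-201 and 9.09% of Meg3-209, in part on the opposite strand (Gm37376 at Malat1, Gm26906 at Meg3), and no base of Snhg11-201. Since the sources do not say whether strand was used in counting, reads from opposite strands cannot be told apart there.

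The ends of the Neat1 forms are shown because the member with the largest change is Neat1 and its rows separate these forms. Capitals mark the poly(A) signal in the short form and a run of at least 5 A in the long form, part of the A-rich end that folds into a triple helix in place of a poly(A) tail. Both are read from M21 transcripts on mm10, minus strand, at chr19:5842307-5842366 and chr19:5824708-5824807.
Neat1-202 (short form), last 60 bases: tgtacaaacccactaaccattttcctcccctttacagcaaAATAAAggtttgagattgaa
Neat1-201 (long form), last 100 bases: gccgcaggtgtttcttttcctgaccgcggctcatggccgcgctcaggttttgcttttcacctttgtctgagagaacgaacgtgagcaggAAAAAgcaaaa

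The miR-770 and Gm25129 sequences are shown because the rows of their genes, inside Meg3 and Snhg11, passed the test in at least 1 comparison, and Gm25187 because it is the other snoRNA gene inside Snhg11. The mature forms of miR-770 are from RefSeq (GRCm38.p6), with the seed, bases 2 to 8, in capitals. The Gm25129 snoRNA and its neighbour Gm25187, at chr2:158379534-158379666 and chr2:158378222-158378354 on the plus strand, are from M21, with the closing ACA in capitals; ACA near the end marks the H/ACA class of snoRNAs.
mmu-miR-770-5p: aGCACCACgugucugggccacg
mmu-miR-770-3p: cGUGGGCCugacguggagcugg
Gm25129: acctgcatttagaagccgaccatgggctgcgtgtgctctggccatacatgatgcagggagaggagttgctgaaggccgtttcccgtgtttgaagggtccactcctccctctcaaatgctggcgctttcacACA
Gm25187: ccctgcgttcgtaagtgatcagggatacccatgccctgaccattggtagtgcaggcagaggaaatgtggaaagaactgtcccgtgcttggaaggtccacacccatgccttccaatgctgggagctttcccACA

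Counts summed over the genes' top transcripts ranged from 11016841 to 15308781 per library, and mitochondrially encoded genes held 2.06% to 2.81% of them. Layer 4 excitatory markers were present, with 7 of 8 above the low-count filter and summed levels of 2352 to 2784 CPM, counts scaled to a common library total. Otx2 itself had 0 counts in 5 libraries and 73 in heterozygous replicate 2 (4.77 CPM), so its level does not check the genotype labels. Both heterozygous libraries stood apart from the wild-type libraries in sex-linked transcripts: Xist stood at 789 and 928 CPM against 0.269 to 0.635, and Ddx3y at 2.49 and 1.05 CPM against 142 to 155. Genotype and these sex-linked levels cannot be told apart in any comparison with the heterozygous group. Heterozygous replicate 2 also held choroid plexus transcripts: the 8 markers summed to 620 CPM there, with Ttr at 586, against 1.18 to 2.04 CPM in the other 5 libraries. Levels below are CPM further scaled by edgeR's trimmed mean of M values (TMM), and a gene changed where the quasi-likelihood test gave a Benjamini-Hochberg adjusted p under 0.05 over 15841 tested genes.

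The label of these RNAs as abundant held for 3 of the 4. Malat1 had the highest count of any gene in all 6 libraries and held 2.52% to 3.51% of each library's counts. Meg3 ranked 6 or 7 by counts, with 0.348% to 0.403%, and Snhg11 ranked 22 to 46, with 0.133% to 0.174%. Neat1 was not abundant: it ranked 3810 to 8531 and held 0.00144% to 0.00587% of the counts. Per kilobase of transcript the order began likewise, with Malat1 at 3547 to 5054 CPM per kb, rank 2 or 3 of all genes with a known length. Meg3 (235 to 285 CPM per kb) and Snhg11 (234 to 295) overlapped on that scale, and their order differed between libraries. Meg3 was above Snhg11 in both wild-type P30 libraries (263 against 237 and 285 against 234). It was below Snhg11 in both heterozygous libraries (269 against 289 and 267 against 295). At P100 Meg3 was above Snhg11 in replicate 1 and below it in replicate 2. Neat1 lay far below at 0.691 to 2.81.

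**Figure D1:**
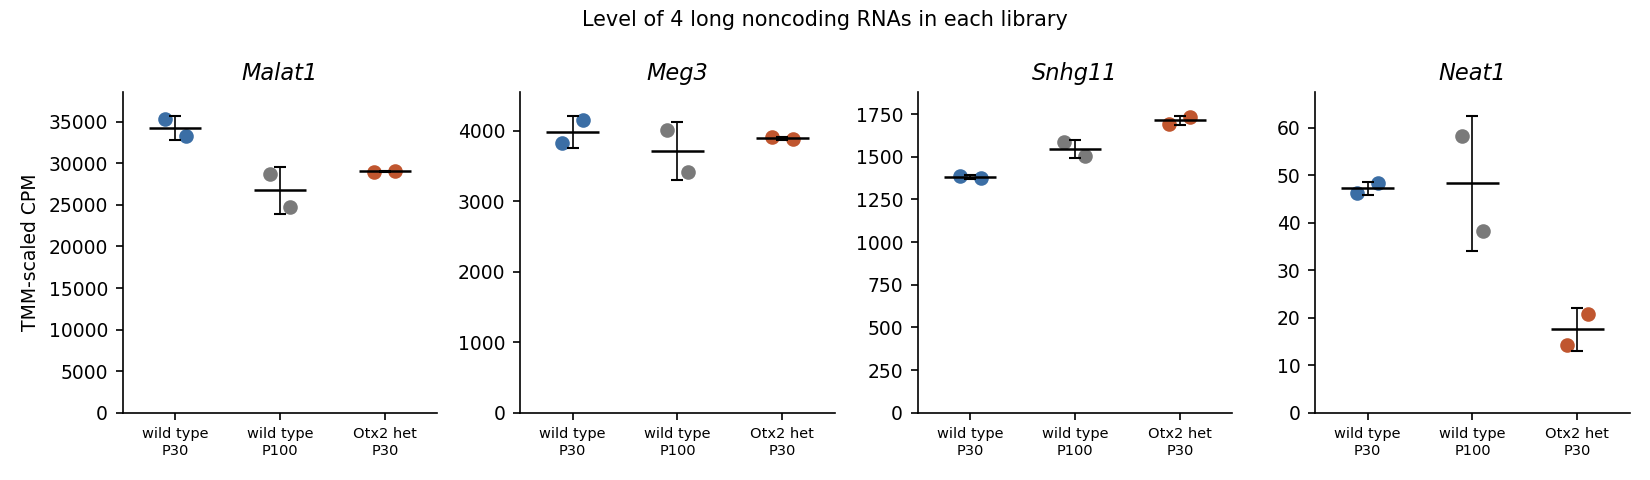
TMM-scaled CPM (linear axes from 0, one scale per RNA) of the 4 RNAs in the 6 libraries; points are libraries, bars the mean and SD of 2. Malat1 is highest in the wild-type P30 pair, Neat1 lowest in the heterozygous pair (14.3 and 20.8 CPM), Snhg11 highest in the heterozygous pair, and the Meg3 groups overlap.

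Together the 4 RNAs held 4.03% and 3.76% of the counts of the wild-type P30 libraries. They held 3.46% and 3.03% at wild-type P100, and 3.478% and 3.484% in the heterozygous P30 libraries. The wild-type P30 pair was thus above the other 4 libraries, with means of 3.89% ± 0.194, 3.24% ± 0.306 and 3.48% ± 0.004 (SD, n = 2 each). Malat1 alone made up 83.3% to 87.0% of this sum, and without it the RNAs held 0.531%, 0.537% and 0.565% on average in the 3 groups. The largest half-width of a 95% Wilson interval on such a share was 0.0116 percentage points, which covers counting error only.

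**Figure D2:**
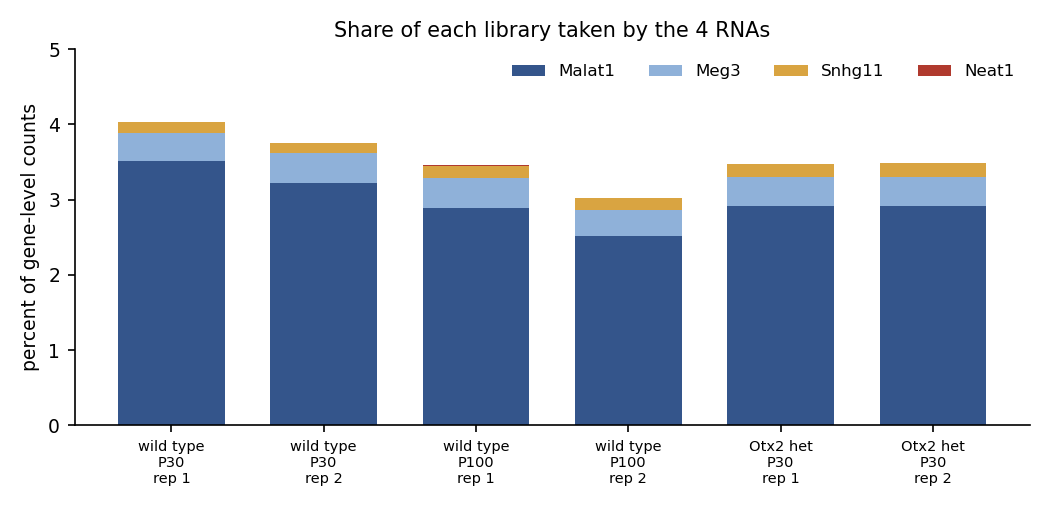
Percent of gene-level counts (linear axis from 0) taken by the 4 RNAs in each of the 6 libraries, stacked. Malat1 forms most of every bar, the bars run from 3.03% to 4.03%, and Neat1, at most 0.00587%, is too small to be seen.

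The comparison of wild-type P100 with wild-type P30 asks what differs between the peak of visual plasticity in young mice and adulthood. Malat1 fell with age. It stood at 35291 and 33265 CPM at P30 and at 28740 and 24770 CPM at P100. Every P100 library was below every P30 library, and the P100 libraries differed more from each other than the P30 libraries did. The log2 difference was -0.36 (SE 0.078, 95% interval -0.53 to -0.19, adjusted p = 0.0150), a level 21.9% lower. Without wild-type P100 replicate 2 the difference was -0.25 and the adjusted p = 0.0670, so the call rests in part on that library.

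The other 3 RNAs did not pass the test between these ages, so 1 of 4 changed, against 7.54% of all tested genes. Meg3 stood at 3822 and 4146 CPM at P30 and at 4006 and 3421 CPM at P100, and the groups overlapped (log2 difference -0.10, interval -0.27 to 0.07, adjusted p = 0.487). Snhg11 stood at 1390 and 1375 CPM at P30, then at 1584 and 1507 CPM at P100. Its groups did not overlap, as for 51.2% of tested genes, and its log2 difference of 0.16 (interval 0.03 to 0.30) had an adjusted p = 0.140. Neat1 stood at 46.3 and 48.2 CPM at P30 and at 58.3 and 38.3 CPM at P100. The P100 libraries lay on either side of the P30 pair, a spread of 1.52 times against a counting error of 3.52% to 4.79% per wild-type library, and the log2 difference was 0.04 (interval -0.33 to 0.41, adjusted p = 0.926).

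The comparison of heterozygous with wild-type mice at P30 asks what differs between the labelled Otx2 genotypes at the young age, where sex-linked transcripts differ as well. Neat1 fell and Snhg11 rose, so 2 of the 4 RNAs changed, against 3.23% of all tested genes. Neat1 stood at 46.3 and 48.2 CPM in wild type and at 14.3 and 20.8 CPM in the heterozygotes. Both heterozygous libraries lay under the lowest wild-type library of either age. The log2 difference was -1.43 (SE 0.185, interval -1.82 to -1.03, adjusted p = 7.78e-04), a level 2.69-fold lower. Leaving out heterozygous replicate 2, the library with choroid plexus transcripts, gave -1.72, and leaving out replicate 1 gave -1.19; Neat1 passed the test both times.

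Snhg11 stood at 1390 and 1375 CPM in wild type and at 1693 and 1732 CPM in the heterozygotes. The pairs were each tight and lay apart, with a log2 difference of 0.31 (SE 0.063, interval 0.17 to 0.44, adjusted p = 0.0158), a level 1.24-fold higher. With only one heterozygous library left, the difference was 0.33 (without replicate 1, adjusted p = 0.106) or 0.29 (without replicate 2, adjusted p = 0.116). Malat1 stood at 28985 and 29088 CPM in the heterozygotes, below both wild-type P30 libraries; groups that do not overlap occurred for 48.9% of tested genes. Its log2 difference of -0.24 (interval -0.41 to -0.07, adjusted p = 0.122) did not pass the test. Meg3, at 3911 and 3879 CPM, lay between its wild-type values, with a log2 difference of -0.03 (interval -0.20 to 0.14, adjusted p = 0.876).

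**Figure D3:**
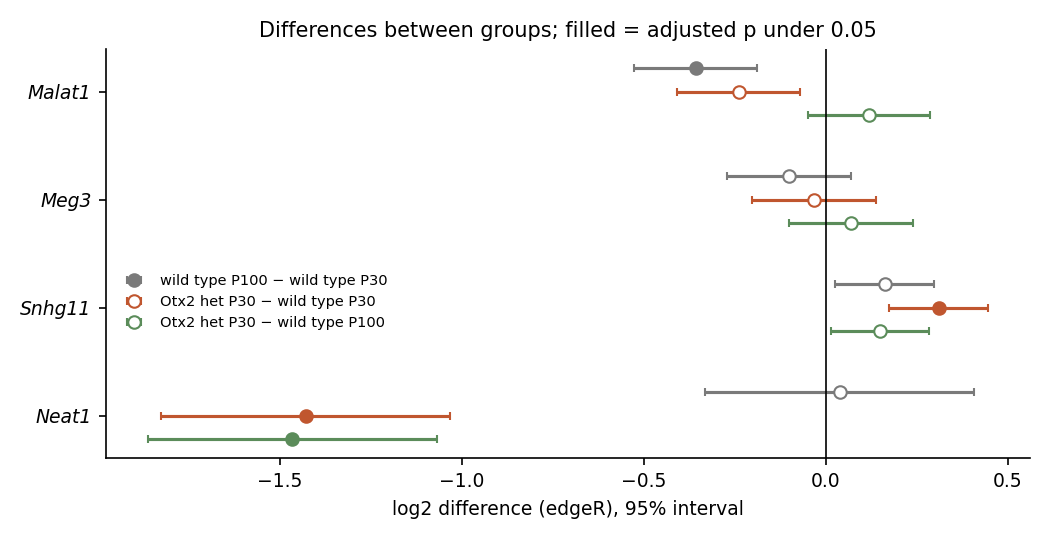
Log2 differences from edgeR (x axis) with 95% intervals for the 4 RNAs in the 3 comparisons; filled points passed an adjusted p of 0.05. Neat1 in the heterozygotes lies near -1.43 and -1.47, and all other values lie between -0.36 and 0.31.

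Both comparisons above use the same wild-type P30 libraries, so their values are given side by side and their likeness is no result. The direct contrast of the heterozygous P30 with the wild-type P100 libraries tests where the age and genotype differences are unequal. Neat1 was 2.76-fold lower in the heterozygotes (log2 difference -1.47, SE 0.184, interval -1.86 to -1.07, adjusted p = 5.33e-04). It was the single RNA of the 4 to change, against 5.1% of all tested genes. Malat1 differed by 0.12 (interval -0.05 to 0.29, adjusted p = 0.455); without wild-type P100 replicate 1 its difference was 0.23 and without P100 replicate 2 it was 0.01, neither past the test. Meg3 differed by 0.07 (interval -0.10 to 0.24, adjusted p = 0.701) and Snhg11 by 0.15 (interval 0.01 to 0.28, adjusted p = 0.212).

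Other gene groups moved in these libraries beside Malat1, Neat1 and Snhg11. Of 30 activity-regulated genes, such as the immediate early genes Fos and Arc, 28 fell with age (median log2 difference -1.82, against 0.00056 over all tested genes). In the heterozygotes 27 of 30 fell (median -1.33, against 0.0029). Of 8 oligodendrocyte markers, including the myelin gene Mbp, 8 fell with age and 7 in the heterozygotes. Their summed level was 2886 to 3092 CPM at wild-type P30, 1470 to 1723 at P100 and 2167 to 2224 in the heterozygotes, and none of the defining markers was at 0. Of 7 tested astrocyte markers, 2 fell with age and 2 in the heterozygotes, and of 5 endothelial markers 2 and 1 fell. Of 6 microglia markers 1 fell with age. Of 7 tested layer 4 excitatory markers, 1 rose and 1 fell with age and 1 fell in the heterozygotes. Over all tested genes 7.54% changed with age and 3.23% in the heterozygotes. None of 5 general neuron markers and none of 6 inhibitory neuron markers changed in either comparison by edgeR's test, DESeq2 or limma-voom. At an unadjusted p under 0.05 there were 2 of the 5 in each comparison, and 2 of the 6 with age and 1 in the heterozygotes. Among all tested genes, 21.3% had an unadjusted edgeR p of 0.0434 or less with age. In the heterozygotes 17.3% of all tested genes had one of 0.0501 or less. The part of these groups in the changes of Malat1, Neat1 and Snhg11 was not tested, and in dissected tissue fewer cells of a type and less RNA per cell cannot be told apart.

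Reads over both parts of Neat1 were fewer in the heterozygotes. The 2 exons of the short-form model Neat1-202 hold 3004 bases, all inside Neat1-201. The remaining 17767 bases of Neat1-201 were taken as long form only, although they include the intron of Neat1-202. Over the short-form bases the libraries held 245 and 386 reads in wild type at P30, 521 and 208 in wild type at P100, and 121 and 199 in the heterozygotes. As CPM of the library total per kb, that is 7.40 and 8.64, then 12.6 and 6.20, then 2.71 and 4.33. Over the long-form-only bases the levels were 1.34 and 1.17 CPM per kb at wild-type P30, 1.17 and 1.14 at P100, and 0.353 and 0.441 in the heterozygotes. The wider P100 spread of Neat1 was thus in the short-form bases, while the long-form bases were nearly equal in all 4 wild-type libraries.

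**Figure D4:**
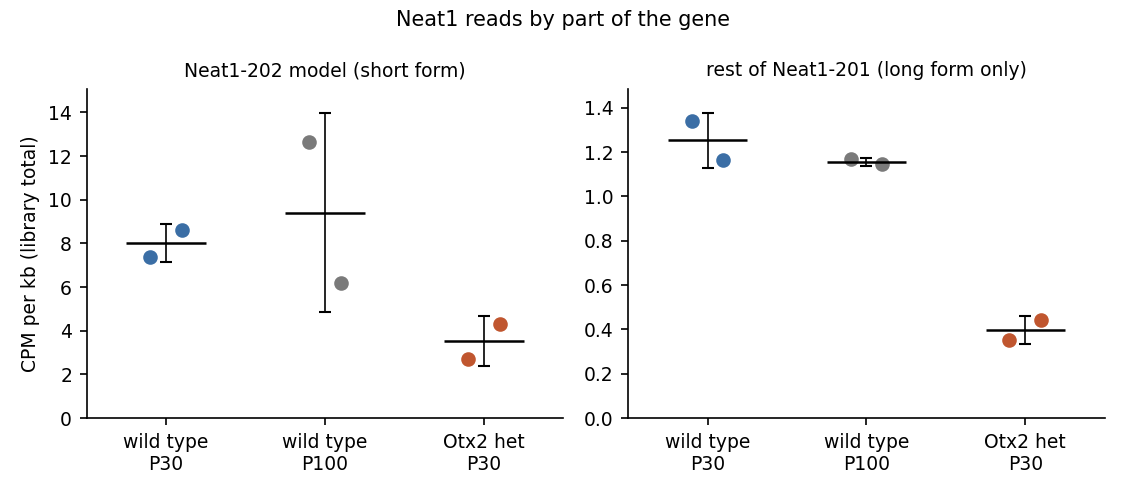
CPM of the library total per kb (linear axes from 0) over the Neat1-202 model and over the bases of Neat1-201 outside it; points are libraries, bars the mean and SD of 2. Both heterozygous libraries lie below all 4 wild-type libraries in each part.

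The short-form bases held 47.8% to 64.6% of the Neat1-201 reads in the wild-type libraries, and 56.5% (Wilson interval 49.8% to 63.0%) and 62.4% (56.9% to 67.5%) in the heterozygotes. Both heterozygous shares lay above both wild-type P30 shares (48.3% and 55.6%) and between the P100 shares (64.6% and 47.8%). The Wilson intervals of the P100 pair, 61.3% to 67.9% and 43.2% to 52.5%, did not overlap, so duplicates differed beyond counting error. A shift between the forms was not tested. Reads over the shared start come from either form, so these shares are not shares of molecules. In the authors' deposited table, Neat1-201 had a log2 difference of -1.42 in the heterozygotes (adjusted p = 4.93e-12) and Neat1-202 of -1.22 (adjusted p = 7.42e-04). The third row, Neat1-203, had -0.87 there and an adjusted p = 0.630. Between the wild-type ages none of the 3 Neat1 rows was called in the authors' deposited table.

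The transcript rows of the other RNAs overlap in part, and a read counts in each row it overlaps. For Malat1, the second largest row held 11.2% as many reads as Malat1-201, and for Meg3 the second, Meg3-206, held 50.3% as many as Meg3-209. The 5 Malat1 rows ran from -0.38 to -0.23 with age in the authors' deposited table, and none was called, with an adjusted p = 0.0928 for Malat1-201. The 5 Snhg11 rows ran from 0.12 to 0.31 in the heterozygotes in the authors' deposited table, and none was called there, with an adjusted p = 0.224 for Snhg11-201. The 11 Meg3 rows ran from -0.29 to 0.02 with age and from -0.20 to 0.21 in the heterozygotes in the authors' deposited table, and none was called in either. Along Malat1, the ratio of reads in the row at the 3' end (Malat1-204) to those in the row at the 5' end (Malat1-203) was 0.810 and 0.974 at wild-type P30, 0.940 and 1.03 at P100, and 0.759 and 0.920 in the heterozygotes. The wild-type P30 ratios overlapped those of both other groups, and both heterozygous ratios lay below both P100 ratios; no test was made of them.

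Several small RNA genes inside these transcription units have rows of their own. Such a row counts reads over the hairpin or snoRNA, which can come from the host RNA or its introns, and is no measure of the mature small RNA. Mir770 lies in an exon of Meg3-209 at chr12:109563692-109563785, so its reads also count for Meg3. Its row stood at 20.6 and 18.9 CPM at wild-type P30, 17.2 and 16.5 at P100 and 13.3 and 13.2 in the heterozygotes. The heterozygous pair was the lowest, and against wild-type P30 the Mir770 row fell by 0.57 on the log2 scale (SE 0.122, adjusted p = 0.0205), while Meg3 itself had a difference of -0.03. Leaving out any one of these 4 libraries took the adjusted p of Mir770 above the threshold, to between 0.0583 and 0.134. In the heterozygotes DESeq2 called 0 of the 2 microRNA rows inside Meg3, and limma-voom called 1. The row of Mir1906-1, the other microRNA gene in Meg3, did not pass edgeR's test in any of the 3 comparisons.

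Snhg11 holds the snoRNA genes Gm25129, in an intron, and Gm25187, in an exon of at least one of its isoforms. The Gm25129 row stood at 8.13 and 8.34 CPM at wild-type P30, 11.7 and 13.5 at P100 and 6.50 and 6.77 in the heterozygotes. The P100 pair was the highest and the heterozygous pair the lowest, whereas Snhg11 itself was highest in the heterozygotes. Gm25129 rose with age by 0.60 on the log2 scale (SE 0.156, adjusted p = 0.0313), and in the heterozygotes it was lower than at wild-type P100 by a log2 difference of -0.91 (SE 0.156, adjusted p = 0.00471). The age call was lost without any one of the 4 wild-type libraries, with an adjusted p of 0.0598 to 0.194. The call against P100 was lost without wild-type P100 replicate 2 (-0.81, adjusted p = 0.0542). Of these 2 snoRNA rows DESeq2 called 0 with age and limma-voom 1, and each called 1 between the heterozygotes and P100. Gm25187, at 1.53 to 3.18 CPM, did not pass edgeR's test in any of the 3 comparisons.

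**Figure D5:**
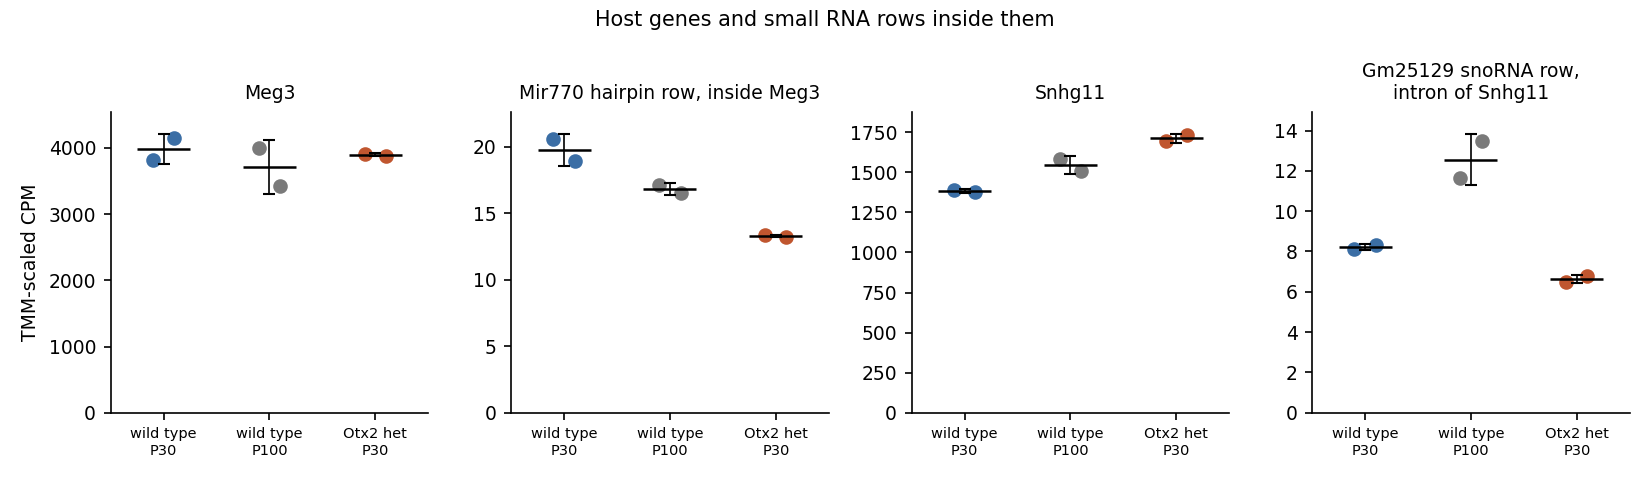
TMM-scaled CPM (linear axes from 0) of Meg3 and Snhg11 and of a small RNA row inside each; points are libraries, bars the mean and SD of 2. The Mir770 row is lowest in the heterozygous pair (13.3 and 13.2 CPM) while Meg3 overlaps between groups, and the Gm25129 row is highest at wild-type P100 while Snhg11 is highest in the heterozygotes.

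Rows of small RNA genes also lie inside the spans of Rian and Mirg. The 16 rows inside Rian summed to 113 and 109 CPM of the library total at wild-type P30, 106 and 116 at P100, and 94.6 and 110 in the heterozygotes. The 12 microRNA rows inside Mirg summed to 8.90 and 8.34, 7.14 and 9.85, and 8.29 and 6.79 CPM in the same order. The groups overlapped in the Rian sums over all 16 rows, of which 12 are snoRNA rows. The 4 microRNA rows inside Rian summed to 12.3 and 10.2 CPM at wild-type P30, 6.77 and 7.07 at P100, and 8.83 and 8.82 in the heterozygotes. These microRNA sums did not overlap between the groups, and no test was made of them. Groups that do not overlap occurred for 51.2% of tested genes with age and 48.9% in the heterozygotes. At wild-type P30 the Mir1188 row, described below, held 64 of the 135 reads in replicate 1 and 71 of the 151 in replicate 2. In the Mirg sums the heterozygous libraries lay below both wild-type P30 libraries, narrowly in one case, and overlapped the P100 libraries. Of the tested rows, 1 of 15 inside Rian and 0 of 9 inside Mirg changed in any comparison by edgeR's test. With age 7.54% of all tested genes changed, and 21.3% had an unadjusted edgeR p of 0.0434 or less. In the heterozygotes 17.3% of all tested genes had one of 0.0501 or less. Inside Mirg 1 row had an unadjusted p under 0.05 with age, 1 in the heterozygotes and 0 between the heterozygotes and P100. There DESeq2 and limma-voom called 0. Inside Rian DESeq2 called 0 rows in each comparison, and limma-voom called 1 with age and 1 between the heterozygotes and P100. The exception was Mir1188, in an intron of Rian, which fell with age by 0.90 on the log2 scale, from 5.84 and 4.94 CPM to 2.61 and 3.17 CPM (adjusted p = 0.0373); leaving out any one of these 4 libraries lost the call (adjusted p 0.0716 to 0.193).

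The genes that act with these RNAs were described from lists chosen with earlier results of these data known. Of 26 tested paraspeckle protein genes, which bind Neat1, none changed in the heterozygotes by edgeR's test (median log2 difference -0.0092). There 5 of the 26 had an unadjusted p under 0.05, and 17.3% of all tested genes had one of 0.0501 or less. DESeq2 and limma-voom called 0 of the 26. None of 27 tested nuclear speckle and SR splicing factor genes, the proteins that gather where Malat1 does, changed in any of the 3 comparisons (medians 0.0030, -0.019 and 0.0046). At an unadjusted p under 0.05 there were 4 with age, 4 in the heterozygotes and 2 between the heterozygotes and P100, and neither DESeq2 nor limma-voom called any. With age 21.3% of all tested genes had an edgeR p of 0.0434 or less. Between the heterozygotes and P100 16.2% of all tested genes had one of 0.0352 or less. Of 13 tested splicing factor genes of the kind that bind Miat, 3 changed with age, against 7.54% of all tested genes: Nova1 and Khdrbs2 rose and Nova2 fell. Miat itself had no row, and whether the products of these 13 genes bind Miat was not examined. With age DESeq2 called 2 of the 13 and limma-voom 3. None of the 13 changed in the heterozygotes (4 at an unadjusted p under 0.05, 0 by DESeq2 or limma-voom). Nova1 and Nova2, which encode related neuronal splicing regulators, had log2 differences of 0.32 (adjusted p = 0.0388) and -0.57 (adjusted p = 0.0175).

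Among 13 tested genes around Malat1 and Neat1, Frmd8 alone changed. That made 1 of 13 with age and 1 of 13 in the heterozygotes, against 7.54% and 3.23% of all tested genes. Frmd8 stood at 11.5 and 12.7 CPM at wild-type P30, 7.24 and 8.71 at P100 and 8.04 and 7.75 in the heterozygotes. The log2 difference of Frmd8 was -0.61 with age (adjusted p = 0.0343) and -0.62 in the heterozygotes (adjusted p = 0.0482), and these calls were kept in 10 and 5 of 16 alternative analyses. DESeq2 called 0 of the 13 genes in either comparison, and limma-voom called 1 in each. Around Snhg11, 6 genes were tested: Ppp1r16b was lower in the heterozygotes (log2 difference -0.41, SE 0.0667, adjusted p = 0.00397) and Fam83d fell with age (-2.02, adjusted p = 0.0281). Ppp1r16b was also lower in the heterozygotes than at P100. Thus 1 of 6 changed with age, in the heterozygotes and against P100, where 7.54%, 3.23% and 5.1% of all tested genes changed. With age DESeq2 called 0 of the 6 and limma-voom 1, and each called 1 in both comparisons with the heterozygotes. None of 11 tested genes in and around the Dlk1-Dio3 domain, which holds Meg3, and none of 9 around Miat changed in any of the 3 comparisons. At an unadjusted p under 0.05 there were 3, 4 and 2 of the 11, and 3, 2 and 1 of the 9, with age, in the heterozygotes and between the heterozygotes and P100, and DESeq2 and limma-voom called 0. Among all tested genes, 21.3% had an edgeR p of 0.0434 or less with age. In the heterozygotes 17.3% had one of 0.0501 or less, and between the heterozygotes and P100 16.2% had one of 0.0352 or less.

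Of 12 tested noncoding RNAs outside the set, 3 changed with age, against 7.54% of all tested genes: A330008L17Rik and Ftx rose and Bc1, a small cytoplasmic RNA of dendrites, fell. In the heterozygotes 2 of 12 changed, against 3.23% of all tested genes: A330008L17Rik rose and Rmrp, the RNA component of RNase MRP, fell. DESeq2 called 2 of the 12 with age and 1 in the heterozygotes, and limma-voom called 3 and 1. Ftx, a gene of the X-inactivation centre, went from 81.9 and 78.0 CPM at P30 to 111 and 102 CPM at P100 (log2 difference 0.41, adjusted p = 0.00779). Of the 4 tested snoRNA host genes other than Snhg11 (Gas5, Dancr, Snhg3 and Snhg12), none changed in any of the 3 comparisons, none had an unadjusted p under 0.05, and DESeq2 and limma-voom called 0.

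Genes most like each RNA over the 6 libraries were taken by Pearson's r of log2 CPM among 9117 genes. They were Adamts4 (r = 0.996) and Pdia3 (r = 0.994) for Malat1, and Thsd7a (r = 0.994) for Neat1. For Meg3 they were Slc32a1 (r = 0.987) and Trp53inp1 (r = 0.983), and for Snhg11 Anapc7 (r = 0.990) and Grb10 (r = 0.987). They were chosen as the highest of all these over 6 points that share libraries and groups, so r is a description only. Among themselves the RNAs were less alike: r was 0.66 between Malat1 and Meg3, 0.25 between Malat1 and Neat1 and -0.74 between Neat1 and Snhg11.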

How the data were processed

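The deposited tables give whole-number read counts per transcript and library for 95533 transcript rows. Per the submitters' processing notes, Bowtie, HTSeq, DESeq 1.8.3 and mm10 were used; the annotation release is not given in the sources used here. Rows without a gene name (9669, with 14.0% of counts) were left out. Reads count in every isoform they overlap, so each gene was represented by its top row. Genes passing filterByExpr (minimum count 10, minimum total 15) were tested with edgeR 4.0.16 (R 4.3.3) in one fit of 3 groups with TMM scaling (factors 0.968 to 1.02), leaving 3 residual degrees of freedom. An exact permutation test of 2 against 2 cannot go below 0.333. On simulated counts of the heterozygous and wild-type P30 comparison (15841 genes), 64.2% of 1.5-fold, 74.6% of 2-fold and 97.0% of 4-fold changes were found, and 9.77% of the calls fell on genes simulated without a change. Of 1.5-fold changes, 56.7% were found in the simulated age comparison and 52.2% between the heterozygotes and P100. Calls on genes without a change made up 5.10% and 10.9% there. The authors' deposited table holds their normalized values (a signal scaled by DESeq), log2 fold changes and p-values per transcript; only the last 2 were copied, as theirs. Positions and lengths are from GENCODE M21.

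The RNAs, the 21 gene lists and the rules were chosen with earlier results of these data known. Genes named are the RNAs, the 2 genes most like each (mean CPM of 10 or more) and up to 4 changed genes per list (with a few left out as not reported here); the small RNA rows and the Malat1 and Neat1 parts were chosen after their values were seen. Duplicates differed beyond sampling noise (chi-square per degree of freedom 4.17 to 5.40). Alternatives were other scalings, filters, tools (limma 3.58.1, DESeq2 1.42.0), counts summed over transcripts, a replicate block and leaving out each library.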

Additional observations from a re-analysis of the deposited data

How the results depend on the processing

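Each comparison was repeated under 16 alternatives. Neat1 passed the test in the heterozygotes in all 16, against wild-type P30 (-1.72 to -1.19) and against P100 (-1.76 to -1.12), and Meg3 in none of the 16 in any comparison. Malat1 kept its age call in 15 and Snhg11 its heterozygote call in 13, the exceptions being those named above and, for Snhg11, counts summed over transcripts (0.27, adjusted p = 0.0592). In the heterozygotes Malat1 passed in 4 of 16: with no filter on low counts, with limma-voom (adjusted p = 0.0287), and without wild-type P100 replicate 1 (0.0343) or replicate 2 (0.0306). Between the heterozygotes and P100 Malat1 passed in 1 of 16, with no filter on low counts (0.12, adjusted p = 0.0170). Among the list genes named, Ndn kept its calls in all 16, and each of the others lost a call in 1 to 11, most often Frmd8 in the heterozygotes. No difference reversed in sign where it had been called. The number of genes called went from 1194 with age to 1860 with no filter and 791 with summed counts, from 511 in the heterozygotes to 1120 and 263, and from 808 between the heterozygotes and P100 to 1473 and 502. Leaving out one library gave 351 to 1078 calls with age, fewest without wild-type P100 replicate 2 and 769, 602 and 592 without wild-type P30 replicates 1 and 2 or P100 replicate 1. In the heterozygotes it gave 184 to 473, with 199 without wild-type P30 replicate 2, 184 without heterozygous replicate 1 and 337 without replicate 2; against P100 it gave 255 to 942, with 311 and 255 without wild-type P100 replicates 1 and 2, and 295 and 429 without heterozygous replicates 1 and 2. With counts of all transcript rows as the total, the share of the 4 RNAs was 1.40% at wild-type P30, 1.16% at P100 and 1.25% in the heterozygotes. With summed counts it was 2.32%, 1.95% and 2.10%, without Malat1 0.531%, 0.537% and 0.565%, and without mitochondrial genes 3.57% in the heterozygotes. Libraries with equal replicate numbers had little correlation of their deviations (-0.0041, 0.10 and -0.00031), which does not settle whether they were paired. With the replicate number as a block 1320, 642 and 988 genes were called, and the block changed no call of the 4 RNAs. Depth limits Neat1 most, with 214 to 806 counts per library.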

Other observations

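Imprinted genes outside the Dlk1-Dio3 domain changed one by one. Of 32 tested, 5 changed with age, against 7.54% of all tested genes: Impact and Rasgrf1 rose and Snrpn, Mkrn3 and Igf2 fell. In the heterozygotes 3 changed, against 3.23% of all tested genes: Ndn and Grb10 rose and Kcnq1 fell. The level of Kcnq1 was low, at 1.00 and 0.904 CPM at wild-type P30 and 0.134 and 0.195 CPM in the heterozygotes. Its call was kept in 7 of the 15 alternatives that gave it a value. Between the heterozygotes and wild-type P100 5 changed, against 5.1% of all tested genes: Ndn, Mkrn3 and Igf2 were higher in the heterozygotes and Nnat and Rasgrf1 lower. Ndn, which encodes the neuronal growth suppressor necdin, stood at 103 and 94.8 CPM at wild-type P30, 84.5 and 88.5 at P100 and 201 and 174 in the heterozygotes. The log2 difference of Ndn was 0.92 against wild-type P30 (SE 0.0839, edgeR adjusted p = 3.93e-05) and 1.12 against P100 (SE 0.0846, adjusted p = 7.86e-06), and it kept both calls under all 16 alternatives. The medians over the 32 genes were -0.095 with age and -0.017 in the heterozygotes. These genes were named from a list chosen with earlier results of these data known.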
